A study of Homo sapiens with 8 samples.

Results

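The messenger RNA of 39 genes of glycolysis, the pentose phosphate pathway and the hypoxia response was followed in the leukemia line CUTLL1 under a NOTCH pathway inhibitor, a glucocorticoid and both together. The 39 were taken from a list of named genes, and each was read by whichever of its probe sets was brightest on average across the 8 arrays. All 39 were among the 19775 genes measured by at least 1 probe set of a single gene. They comprised 2 glucose transporters, 9 genes of upper and 7 of lower glycolysis, and 4 that set the fate of pyruvate. A further 2 controlled fructose 2,6-bisphosphate, 4 belonged to glycogen entry and the pentose phosphate pathway, 3 were the hypoxia-inducible factor HIF1A and its hydroxylases, and 8 were other targets of that factor.

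Glycolysis splits glucose into pyruvate, which is either reduced to lactate or passed to the mitochondria, and the pentose phosphate pathway branches off to give NADPH and ribose for nucleotides. Hypoxia-inducible factors are transcription factors whose alpha subunit is hydroxylated in oxygen by the EGLN enzymes and then destroyed, and their targets include many glycolytic enzymes, VEGFA and EGLN3 itself. In T-cell leukemia, NOTCH1 signalling and MYC, which it activates, are known to promote glucose use, while glucocorticoids lower it in sensitive lymphoid cells.

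CUTLL1 is an established line of human T-cell acute lymphoblastic leukemia. Cells were grown in RPMI with 20% serum and treated for 48 h with DMSO as vehicle, PF-03084014, dexamethasone, or both compounds (the combination), each compound at 1 microM. Dexamethasone is a synthetic glucocorticoid, and PF-03084014 inhibits gamma-secretase, which prevents the cleavage that releases active NOTCH. There were 2 arrays per group, called replicas in the labels, and it is not stated that they were grown separately, so every p-value here reflects the scatter of these samples alone, which may be technical. All 4 groups are of 1 cell line.

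The array medians lay between 61.8 and 63.9 intensity units except for 76.3 on combination replicate 2, which also had 43.9% of its probe sets above 100 against 40.4% to 41.0% elsewhere. The GAPDH 3' over 5' signal ratio was 0.932 to 0.979 on the other arrays and 1.04 on that one. The same ratio for ACTB did not set it apart, at 2.26 and 1.92 with DMSO and 1.84 and 2.27 with the combination. It was 1.82 and 1.85 with PF-03084014 and 2.07 and 2.21 with dexamethasone. In the combination 9.16% of all genes differed at least 2-fold between the replicates, against 1.77% to 2.43% in the other groups. Of the defining T cell and thymocyte genes, 12 of 12 exceeded 100 on every array, with sums of 56039 to 65564. The sums for markers of other lineages were 429 to 712 for 3 B cell genes, 182 to 279 for 4 myeloid genes, 132 to 255 for 3 erythroid genes and 226 to 416 for 4 epithelial and stromal genes. Each of these sums was highest on combination replicate 2, and their part in the results was not tested.

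Many genes of the set were lower with the combination than with DMSO. Against DMSO, 18 of the 39 genes fell and 0 rose at an adjusted p under 0.05, whereas 5.54% of all 19775 genes fell and 6.43% rose. The median difference was -0.52 on the log2 scale over the 39 and 0.063 over all genes. Both combination arrays lay below both DMSO arrays for 27 of the 39, a pattern shown by 21.5% of all genes. Both lay below all 6 other arrays for 25 of the 39, or 64.1%, against 10.8% of all genes. Most of the 39 were bright, and among the 5210 genes with a mean of at least 1000, 10.5% fell, against 14 of the 32 of the 39 at that brightness. A fit of only the 2 groups compared, with 2 residual degrees of freedom, called 0 of the 39 and 0 of all genes, with 18 of the 39 and 18.9% of all genes at an unadjusted p under 0.05. Down-weighting of noisy arrays left 10 of the 39 and 2.27% of all genes lower. In a bulk sample, a change in every cell and a change in the mix or state of the cells cannot be told apart.

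**Figure D1:**
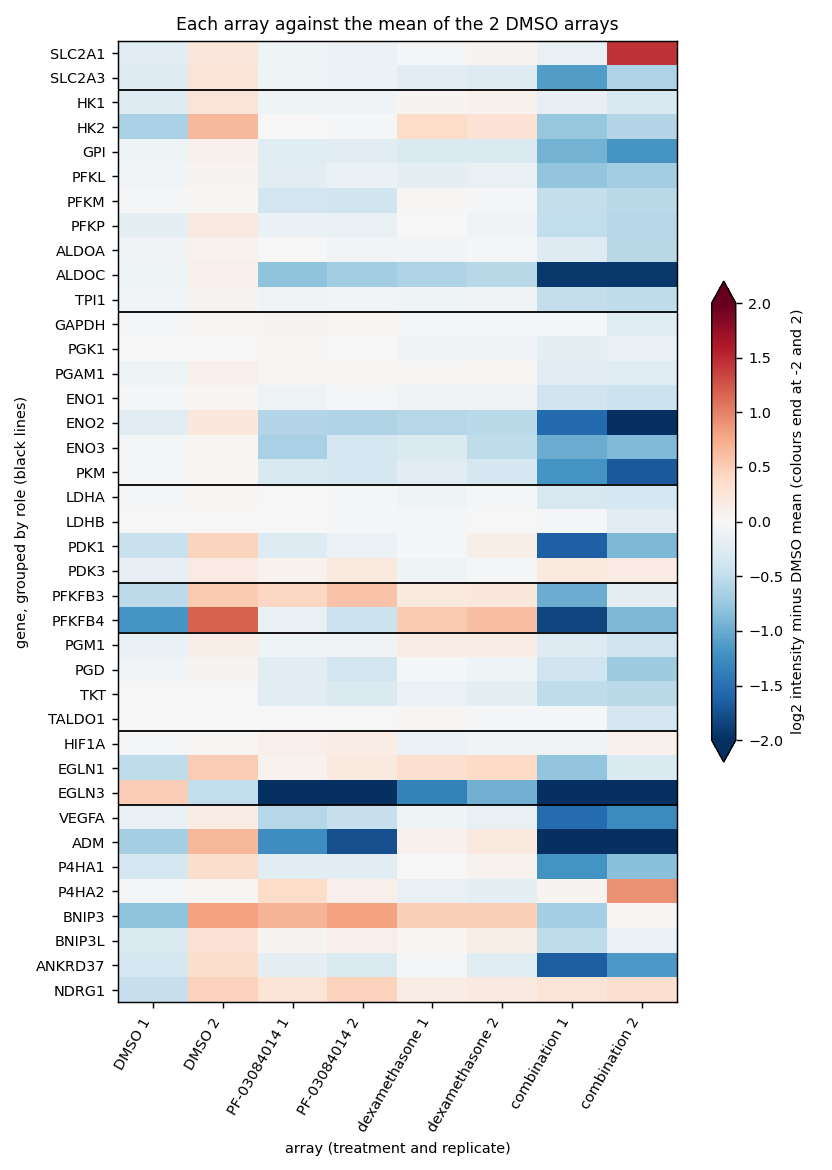
Log2 difference of each array from the mean of the 2 DMSO arrays for the 39 genes, 1 row per gene grouped by role and 1 column per array. The 2 combination columns are the ones with most genes below DMSO, with 34 of the 39 mean differences negative, and the DMSO columns differ from each other mainly in the hypoxia genes.

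Here and below, an intensity is the deposited value of 1 probe set, a difference is in log2 units with its standard error from a limma fit of all 8 arrays, and rose or fell means an adjusted p under 0.05. The 2 glucose transporters were not called. SLC2A3, a high-affinity glucose transporter, read 2116 and 2997 with DMSO, 2367 and 2333 with PF-03084014, 2152 and 2102 with dexamethasone, and 1166 and 1642 with the combination, a combination difference of -0.86 ± 0.22 (adjusted p 0.066). Its 2 combination arrays were the lowest of the 8. SLC2A1, the widespread transporter GLUT1, read 249 and 342 with DMSO, 276 and 269 with PF-03084014, 284 and 303 with dexamethasone, and 263 and 797 with the combination. Only combination replicate 2 was high, and the difference of 0.65 ± 0.51 did not pass the test (adjusted p 0.454). Without combination replicate 1, which leaves 1 array in that group, the difference of the same gene was 1.45.

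In upper glycolysis 6 of 9 genes fell with the combination, with a class median of -0.53. ALDOC, the aldolase isoform best known from brain, read 1999.5 and 2302 with DMSO, 1224 and 1331 with PF-03084014, 1395 and 1463 with dexamethasone, and 562 and 562 with the combination. The 4 treatments formed steps with no overlap between DMSO, each single compound and the combination, where it fell 3.82-fold (-1.93 ± 0.082, adjusted p 0.00156). GPI, which turns glucose 6-phosphate into fructose 6-phosphate, read 7579.9 and 8583 with DMSO, 6785 and 6888 with PF-03084014, 6602 and 6601 with dexamethasone, and 4191 and 3558 with the combination. Its fall of 2.09-fold (-1.06 ± 0.10, adjusted p 0.00483) was again below every other array.

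All 3 phosphofructokinase genes, which encode subunits of the committing enzyme of glycolysis, fell. PFKL, the liver-type subunit, read 912 and 975 with DMSO, 806 and 862 with PF-03084014, 829.8 and 846 with dexamethasone, and 544 and 582 with the combination, a difference of -0.75 ± 0.064 (adjusted p 0.00447). PFKM, the muscle-type subunit, read 987 and 1027 with DMSO, 770.3 and 762 with PF-03084014, 1026 and 993 with dexamethasone, and 720.4 and 696 with the combination, a difference of -0.51 ± 0.046 (adjusted p 0.00486). Most of the PFKM step was already present with PF-03084014 alone, while the dexamethasone arrays overlapped DMSO. PFKP, the platelet-type subunit, read 4561 and 5851 with DMSO, 4699 and 4685 with PF-03084014, 5121 and 4897 with dexamethasone, and 3676 and 3479 with the combination, a difference of -0.53 ± 0.12 (adjusted p 0.0468), and its DMSO arrays were far enough apart that all 4 single-compound arrays lay between them.

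TPI1, which interconverts the triose phosphates, was among the brightest genes and read 12376 and 13327 with DMSO, 12183 and 12334 with PF-03084014, 12067 and 12198 with dexamethasone, and 9196 and 9064 with the combination. The fall was small in size but separated from all other arrays (-0.49 ± 0.046, adjusted p 0.0053). The hexokinases, which phosphorylate glucose on entry, were not called. HK2, the inducible form, read 1552 and 3798 with DMSO, 2407 and 2378 with PF-03084014, 3133 and 2976 with dexamethasone, and 1433 and 1625 with the combination, with DMSO replicate 1 close to the combination, and its difference was -0.67 ± 0.40 (adjusted p 0.337). HK1 stood at -0.23 ± 0.17 and ALDOA, the main aldolase of most tissues, at -0.41 ± 0.10 (adjusted p 0.0659).

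In lower glycolysis 5 of 7 genes fell, with a class median of -0.42. ENO2, the neuron-type enolase, read 2057 and 2767 with DMSO, 1594 and 1579 with PF-03084014, 1606 and 1644 with dexamethasone, and 813 and 587 with the combination. Both single compounds gave nearly equal intermediate levels, and the combination was 3.45-fold below DMSO (-1.79 ± 0.20, adjusted p 0.00767). PKM, the pyruvate kinase that makes the last ATP of the pathway, read 1939 and 2033 with DMSO, 1608 and 1549 with PF-03084014, 1717 and 1576 with dexamethasone, and 874 and 619 with the combination. It too had intermediate levels with either compound, with a fall of 2.7-fold (-1.43 ± 0.16, adjusted p 0.00818). ENO3, the muscle-type enolase, was dim and read 317 and 333 with DMSO, 207 and 254 with PF-03084014, 267 and 228 with dexamethasone, and 163 and 177 with the combination, a difference of -0.94 ± 0.15 (adjusted p 0.0187).

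ENO1, the ubiquitous enolase, read 16211 and 17164 with DMSO, 15567 and 16198 with PF-03084014, 15927 and 15839 with dexamethasone, and 12618 and 12359 with the combination. Its fall of 0.42 ± 0.045 was smaller than that of ENO2 in log2 units and had an adjusted p of 0.0074. PGK1, which makes the first ATP of the pathway, read 15370.4 and 15262 with DMSO, 15522 and 15328 with PF-03084014, 14585 and 14629 with dexamethasone, and 13305 and 13791 with the combination, a difference of -0.18 ± 0.036 (adjusted p 0.0372). Less bright PGK1 probe sets gave -0.56 and -0.85 (adjusted p 0.0472 and 0.0252 in a fit of all probe sets). The top of the scale was near, since the highest value on any array was between 18406 and 19915, and 9 of the 39 genes had a mean above 8000. How far the scale compresses the brightest genes was not tested. PGAM1, a phosphoglycerate mutase, stood at -0.22 ± 0.072 (adjusted p 0.119) and GAPDH, which ranged from 14174 to 17245 over the 8 arrays, at -0.13 ± 0.072 (adjusted p 0.288).

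**Figure D2:**
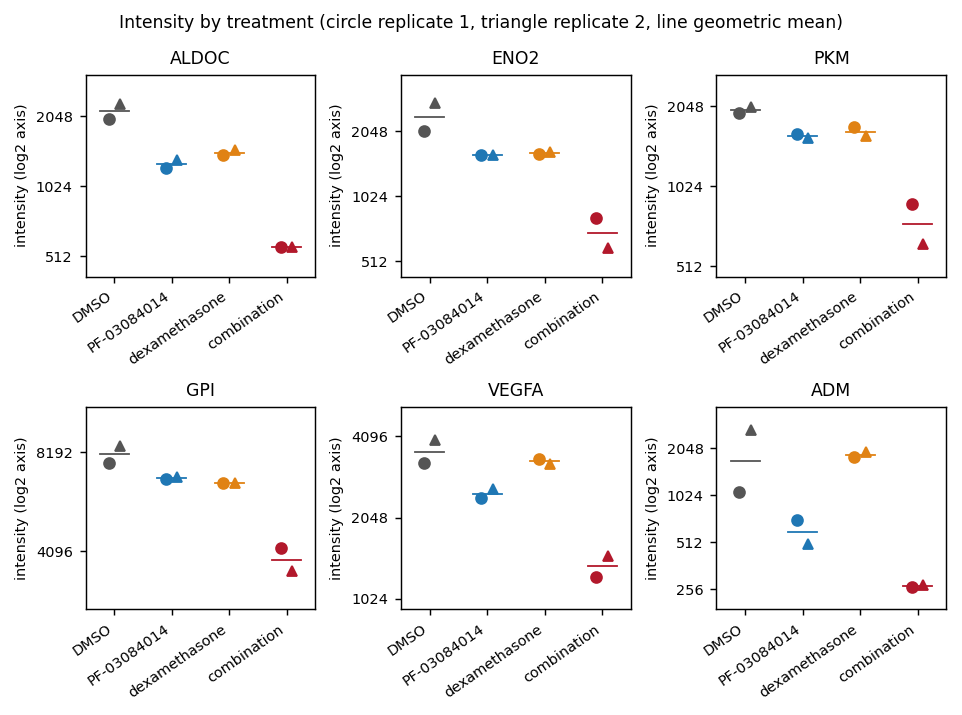
Intensity on each of the 8 arrays (log2 axis, circles replicate 1, triangles replicate 2, lines geometric means) for genes of the set that fell with the combination. For ALDOC, ENO2 and PKM the single-compound arrays lie between DMSO and the combination, though of these single-compound differences only that of ALDOC with PF-03084014 passed the test, and the DMSO arrays of ADM are 1067 and 2667.

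Of the genes that set the fate of pyruvate, 1 of 4 fell. LDHA, the lactate dehydrogenase subunit that favours lactate, read 13722 and 14482 with DMSO, 14207 and 13873 with PF-03084014, 13312 and 13899.5 with dexamethasone, and 11334 and 11036 with the combination, a difference of -0.33 ± 0.046 (adjusted p 0.0137). LDHB, the other subunit, stood at -0.11 ± 0.066 (adjusted p 0.333). PDK1, a kinase that shuts off pyruvate dehydrogenase, read 2177 and 4049 with DMSO, 2479 and 2735 with PF-03084014, 2915 and 3213 with dexamethasone, and 956 and 1592 with the combination. Its combination arrays were below all others, but the difference of -1.27 ± 0.36 did not pass (adjusted p 0.0883). A second PDK1 probe set did, at -1.66 with an adjusted p of 0.0432 in a fit of all probe sets. PDK3, another kinase of that family, stood at 0.18 ± 0.11 by its brightest probe set, while its other 4 bright enough probe sets had negative differences, 2 of them called, at -0.62 and -0.77 (adjusted p 0.0108 and 0.0203).

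The pair of bifunctional enzymes that make and remove fructose 2,6-bisphosphate, the strongest activator of phosphofructokinase, was not called. PFKFB3 read 2483 and 5152 with DMSO, 4740.0 and 5305 with PF-03084014, 4087 and 4153 with dexamethasone, and 1801 and 3162 with the combination, a combination difference of -0.58 ± 0.41 (adjusted p 0.402). PFKFB4 read 414 and 2113 with DMSO, 846 and 696 with PF-03084014, 1337 and 1415 with dexamethasone, and 262 and 500.0 with the combination, a difference of -1.37 ± 0.78 (adjusted p 0.315). In both, DMSO replicate 1 lay between the combination arrays and DMSO replicate 2 above them.

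In glycogen entry and the pentose phosphate pathway 2 of 4 genes fell. TKT, the transketolase of the non-oxidative branch, read 9474 and 9387 with DMSO, 8103 and 7731 with PF-03084014, 8697 and 8314 with dexamethasone, and 6637 and 6483 with the combination, a difference of -0.52 ± 0.042 (adjusted p 0.00395). Replicates were close and the combination was lowest. PGD, an NADPH-producing dehydrogenase of the oxidative branch, read 1796 and 1943 with DMSO, 1606 and 1449.9 with PF-03084014, 1837 and 1759 with dexamethasone, and 1418 and 1144 with the combination, a difference of -0.55 ± 0.12 (adjusted p 0.0402). PGM1, which links glycogen to glucose 6-phosphate, stood at -0.33 ± 0.093 (adjusted p 0.0858) and TALDO1, the transaldolase, at -0.19 ± 0.10 (adjusted p 0.287).

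Of the factor and its hydroxylases, 1 of 3 genes fell. HIF1A, the alpha subunit of the factor, read 6704 and 6885 with DMSO, 7315 and 7541 with PF-03084014, 6278 and 6483 with dexamethasone, and 6472 and 7208 with the combination, and the combination difference was 0.0076 ± 0.06 (adjusted p 0.972). Its messenger RNA says nothing of the protein, whose level is set mainly by hydroxylation. EGLN3, a hydroxylase that is itself a target, read 269 and 136 with DMSO, 37.6 and 24.4 with PF-03084014, 75.0 and 97.7 with dexamethasone, and 27.0 and 9.8 with the combination. The combination values were near the bacterial control medians of 18.6 to 23.4, so the fitted difference of -3.20 ± 0.46 (adjusted p 0.0146) depends on where low values are floored. With a floor of 64 it was -1.58 and no longer called (adjusted p 0.0659, EGLN3: combination against DMSO). EGLN1, the main oxygen-sensing hydroxylase, read 1877 and 3805 with DMSO, 2798 and 3074 with PF-03084014, 3374 and 3509 with dexamethasone, and 1548 and 2183 with the combination, a difference of -0.54 ± 0.35 (adjusted p 0.369).

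Among the other targets 3 of 8 fell. VEGFA, the angiogenic growth factor, read 3253 and 3961 with DMSO, 2411 and 2619 with PF-03084014, 3388 and 3242 with dexamethasone, and 1239 and 1478 with the combination. Dexamethasone arrays lay within or near the DMSO range, PF-03084014 arrays below it, and the combination was 2.65-fold below DMSO (-1.41 ± 0.13, adjusted p 0.00485). ADM, which encodes the vasodilator peptide adrenomedullin, read 1067 and 2667 with DMSO, 711 and 499 with PF-03084014, 1793 and 1924 with dexamethasone, and 267 and 272 with the combination. The combination arrays agreed closely and the DMSO arrays did not, with a difference of -2.65 ± 0.44 (adjusted p 0.0212). ANKRD37, an ankyrin repeat gene induced by hypoxia, read 1148 and 1871 with DMSO, 1291 and 1197 with PF-03084014, 1444 and 1240.1 with dexamethasone, and 469 and 659.5 with the combination, a difference of -1.40 ± 0.28 (adjusted p 0.0343).

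P4HA1, a subunit of collagen prolyl hydroxylase, read 3309.9 and 5398 with DMSO, 3652 and 3634 with PF-03084014, 4270.0 and 4458 with dexamethasone, and 1851 and 2369 with the combination, a difference of -1.01 ± 0.24 that missed the threshold (adjusted p 0.0585). BNIP3, a mitophagy receptor, read 1834 and 5615 with DMSO, 5129 and 5623 with PF-03084014, 4472 and 4472 with dexamethasone, and 2012 and 3272 with the combination, a difference of -0.32 ± 0.54 (adjusted p 0.743). Its lowest array was a DMSO one. BNIP3L, a related receptor, stood at -0.31 ± 0.22, NDRG1, a stress-induced gene, at 0.29 ± 0.29, and P4HA2, which was dim at 60.7 to 131.9, at 0.49 ± 0.31. None of these 3 passed the test.

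**Figure D3:**
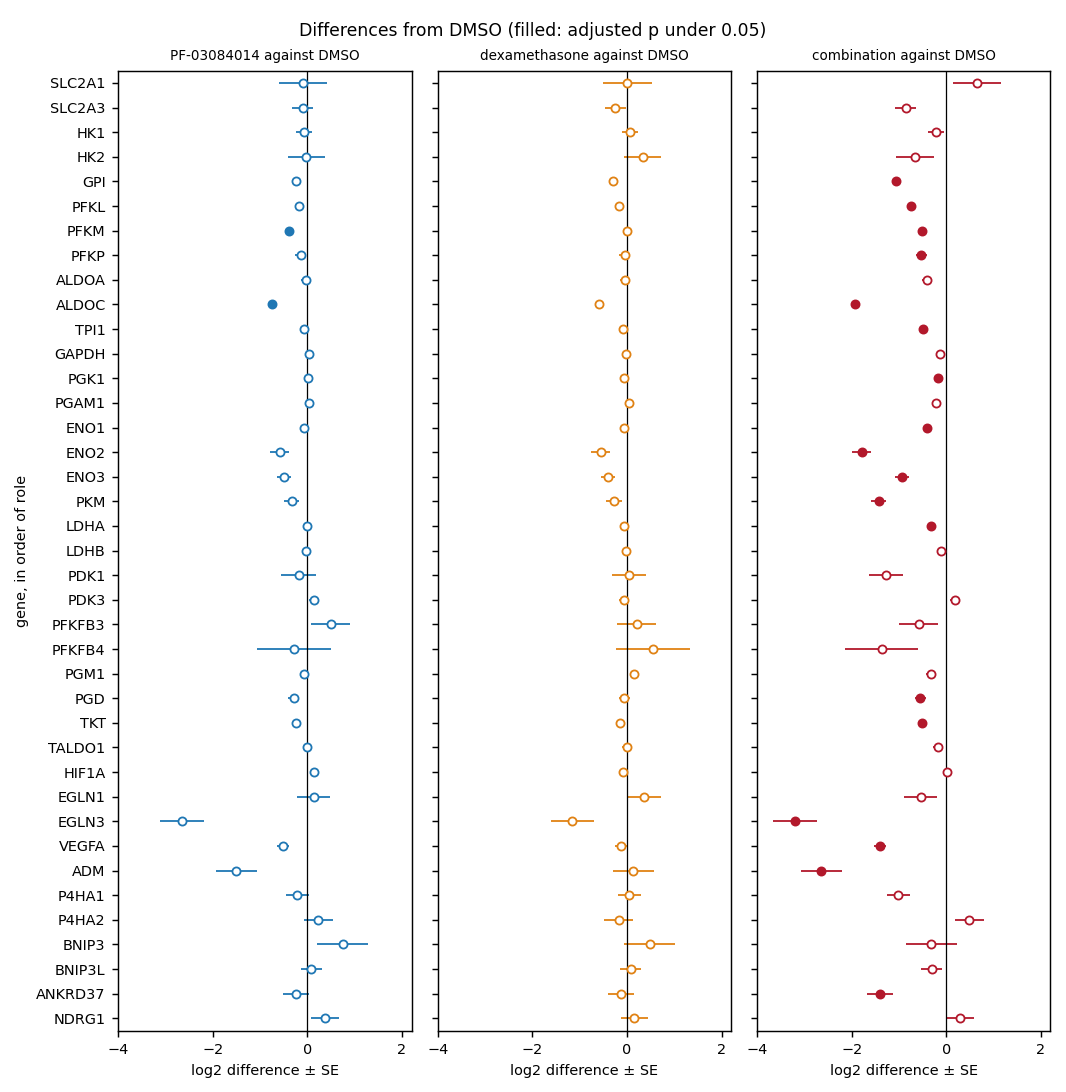
Log2 difference from DMSO of each of the 39 genes under PF-03084014, dexamethasone and the combination, with standard errors of the limma fit and filled symbols for an adjusted p under 0.05. The combination has 18 filled symbols, all below 0, PF-03084014 has 2 and dexamethasone has 0.

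Leaving out any 1 of the 8 arrays kept 9 of the 18 calls: GPI, PFKL, PFKM, ALDOC, TPI1, ENO1, ENO2, TKT and VEGFA. The other 9 kept their direction but lost the call without at least 1 array. LDHA lost it without DMSO replicate 2 (adjusted p 0.074), and PKM and ENO3 without either DMSO array (highest adjusted p 0.0542 and 0.1001). EGLN3 lost it without DMSO replicate 1 or combination replicate 2 (highest 0.0627). ADM was not called without either PF-03084014 array, either dexamethasone array or combination replicate 2 (highest 0.0738). PGK1 was called only without a combination array, PFKP and ANKRD37 only without DMSO replicate 1, and PGD only without combination replicate 1, with highest adjusted p of 0.161, 0.144, 0.102 and 0.176. These fits leave 1 array in a group, and the number of called genes changed over all genes too. A lost or gained call therefore does not rest on that gene alone. Outside the 18, NDRG1 was higher by 0.75 without DMSO replicate 2, and P4HA2 by 0.92 without combination replicate 1.

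Sizes depended on the probe sets used for some of the 18. With the probe sets of each gene averaged, PGK1 was at -0.68 and ENO1 at -1.05, both called. ENO3 was then at -0.27, ANKRD37 at -0.69 and PGD at 0.26, none called (adjusted p 0.418, 0.082 and 0.528). These averages took in dim probe sets, with mean intensities of 13.1 for ENO3, 42.4 for ANKRD37, and 38.7 and 19.8 for PGD. Without probe sets ending in _x_at or _s_at, which can match several transcripts, TPI1 was at -0.87 and PGK1 at -0.85, both called. ENO1 was at -2.25 and not called (adjusted p 0.0758). It was then read by a dim probe set with a mean of 52.3, against 15235 for the chosen one. The average for ENO1 included that dim probe set too. PGK1 also lost its call after quantile normalization, at -0.11 (adjusted p 0.35), and after a shift of all arrays to 1 median, at -0.31 (adjusted p 0.166). EGLN3 was at -1.62 by the probe set brightest on the log2 scale (adjusted p 0.0458).

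The 2 DMSO arrays were themselves unlike in the hypoxia genes. DMSO replicate 2 was at least 2-fold above replicate 1 for 6 of the 39 genes, against 1.1% of all genes. The ratio was 5.11 for PFKFB4, 3.06 for BNIP3, 2.5 for ADM, 2.45 for HK2, 2.08 for PFKFB3 and 2.03 for EGLN1. Replicate 2 was the higher array for 35 of the 39, and the median gap was 0.70 log2 units over the 11 hypoxia genes, 0.15 over the 28 metabolic ones and 0 over all genes. EGLN3 went the other way, with a gap of -0.98. After the floor of 16, no gene of the set differed 2-fold between replicates with PF-03084014 or with dexamethasone. With the combination 1 did, SLC2A1. The combination median gap was still 0.36 over the hypoxia genes, against -0.032 over the metabolic ones and 0.0285 over all genes. For the hypoxia genes it was 0.044 with PF-03084014 and 0.046 with dexamethasone. The unfloored combination values of EGLN3, 27.0 and 9.8, also lay over 2-fold apart. Without DMSO replicate 2 the median combination difference of the 39 was -0.34, and without DMSO replicate 1 it was -0.61. What part the gap had in each result was not tested.

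**Figure D4:**
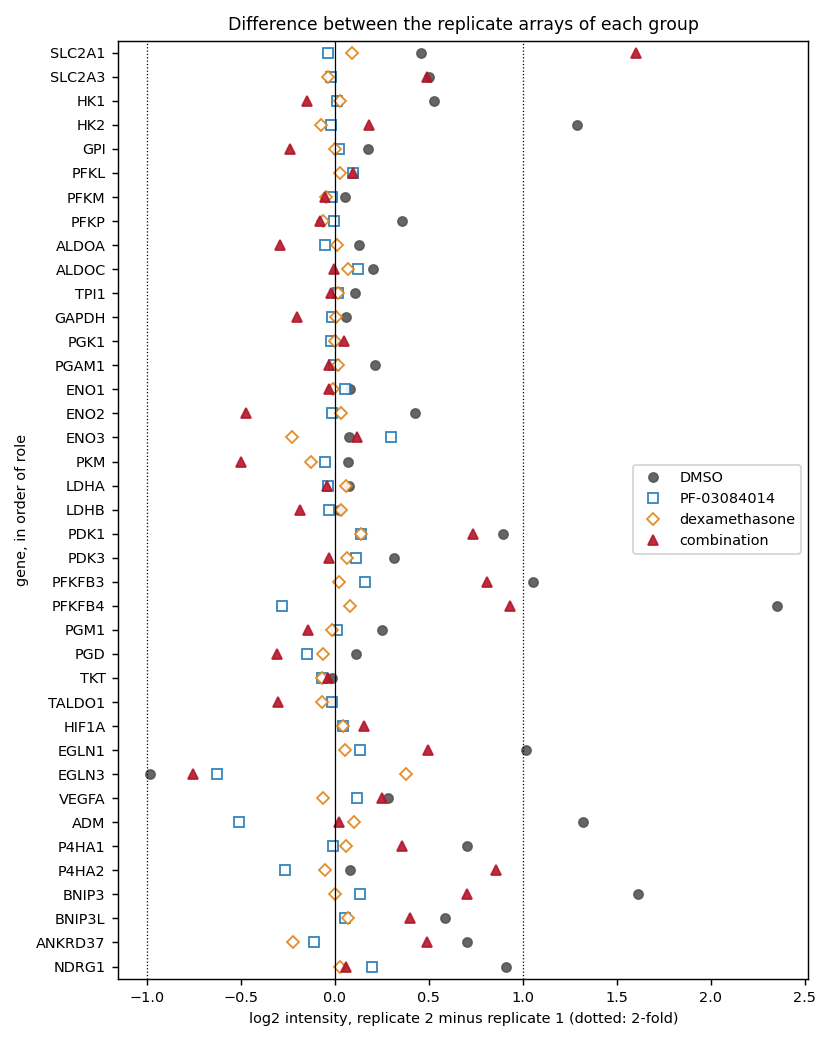
Replicate 2 minus replicate 1 in log2 units for the 39 genes in each of the 4 groups, 1 row per gene and 1 symbol per group, with dotted lines at a 2-fold difference. In DMSO 35 of 39 points lie above 0 and PFKFB4 reaches 2.35, while the PF-03084014 and dexamethasone points stay near 0 for most genes.

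PF-03084014 alone lowered 2 of the 39 genes against 0.349% of all genes. ALDOC fell 1.68-fold (-0.75 ± 0.082, adjusted p 0.0338) and PFKM fell 1.31-fold (-0.39 ± 0.046, adjusted p 0.04). Of the 8 fits that left out 1 array, ALDOC kept its call in 0 and PFKM in 2. Both calls were lost also without an array outside the comparison. In a limma fit of all probe sets ALDOC was not called (adjusted p 0.053). The number of calls over all genes changed too. Over those 8 fits, which leave 1 array in a group, ALDOC stayed at -0.85 to -0.65 and PFKM at -0.42 to -0.37. Both PF-03084014 arrays lay below both DMSO arrays for 14 of the 39, against 19.7% of all genes. The median difference was -0.0815 over the 39 and 0.0177 over all genes, and dropping DMSO replicate 1 made it -0.32 and dropping DMSO replicate 2 made it 0.041, so its sign rested on the DMSO arrays. The largest differences below the threshold were those of EGLN3 at -2.65 ± 0.46 (adjusted p 0.0829), ADM at -1.5 ± 0.44 (adjusted p 0.228), and in the other direction BNIP3 at 0.74 ± 0.54 (adjusted p 0.688).

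Dexamethasone alone gave 0 calls among the 39, while limma called 0.101% of all genes. At an unadjusted p under 0.05 there were 7 of the 39 (17.9%), against 8.96% of all genes. The median difference was -0.047 over the 39 and 0.0139 over all genes. Both dexamethasone arrays lay below both DMSO arrays for 13 of the 39, against 17.7% of all genes. ALDOC at -0.59 ± 0.082 (adjusted p 0.131) and ENO2 at -0.55 ± 0.20 (adjusted p 0.502) had the lowest values in glycolysis, and EGLN3 stood at -1.16 ± 0.46. When genes below the median intensity were left out, ALDOC was called lower (adjusted p 0.0466).

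Adding PF-03084014 to dexamethasone lowered 13 of the 39 genes relative to dexamethasone alone, against 3.99% of all genes. They were 5 genes of upper glycolysis, 3 of lower glycolysis, LDHA, PGM1, TKT, VEGFA and ADM. ALDOC differed by -1.35 ± 0.082 (adjusted p 0.00619), VEGFA by -1.29 ± 0.13 (adjusted p 0.0135) and ADM by -2.79 ± 0.44 (adjusted p 0.0289). Adding dexamethasone to PF-03084014 lowered 10 of the 39 relative to PF-03084014 alone, against 1.77% of all genes. These were GPI, PFKL, ALDOC, TPI1, ENO1, ENO2, PKM, LDHA, TKT and VEGFA, with ALDOC at -1.18 ± 0.082 (adjusted p 0.0143), PKM at -1.10 ± 0.16 (adjusted p 0.0389) and VEGFA at -0.89 ± 0.13 (adjusted p 0.0358). With probe sets averaged per gene, VEGFA against PF-03084014 was at -0.53 and not called (adjusted p 0.0733). The 2 comparisons share the combination arrays. Their counts rose or fell when 1 array was left out, also an array outside the comparison, and so did those over all genes. Such fits leave 1 array in a group, and none of these calls was kept in every one of them. Of the 8 fits, ALDOC and VEGFA each kept the call against dexamethasone in 6 and ADM in 3. Against PF-03084014 ALDOC kept it in 4, PKM in 2 and VEGFA in 1. Against dexamethasone these fits gave -1.38 to -1.31 for ALDOC, -1.42 to -1.17 for VEGFA and -2.84 to -2.73 for ADM. Against PF-03084014 they gave -1.24 to -1.12 for ALDOC, -1.35 to -0.85 for PKM and -1.02 to -0.77 for VEGFA.

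The interaction asks whether the combination differed from the sum of both single effects on the log2 scale. limma called 0 of the 39 and 0% of all genes, with 11 of the 39 and 1798 of the 19775 at an unadjusted p under 0.05. The estimates were negative for 35 of the 39, with a median of -0.34 against 0 over all genes. A shift of all arrays to 1 median moved the median over all genes to -0.14 and that of the 39 to -0.50. PKM stood at -0.83 ± 0.23 (adjusted p 0.429), VEGFA at -0.78 ± 0.18 (adjusted p 0.358), ALDOC at -0.60 ± 0.12 (adjusted p 0.315) and ENO2 at -0.65 ± 0.28 (adjusted p 0.575). Without combination replicate 1, which leaves 1 array in that group, the estimates were -1.08 for PKM and -0.34 for TALDO1. Departure from a sum of the single effects was not shown for any of the 39 on all 8 arrays.

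Several of the 39 genes had more than 1 probe set, which gives a second reading of the same RNA. The 26 such genes had 35 further probe sets with a mean of at least 100. In the combination against DMSO 31 of these had the sign of the chosen probe set, 15 were called lower and 0 higher. The share called over all probe sets was not counted, so the 15 have no background beside them. The 4 of opposite sign were all of PDK3. VEGFA was lower by a second probe set at -1.45 (adjusted p 0.00547) and PKM at -1.30 (adjusted p 0.0461). A further VEGFA probe set, with a mean of 147.8, was at only -0.17 and not called (adjusted p 0.505). BNIP3L, SLC2A3 and ALDOA, not called by the chosen probe set, were lower by another at -1.08, -1.64 and -1.0 (adjusted p 0.022, 0.0481 and 0.0143). In that fit of 41097 probe sets the chosen probe sets of PGK1, PGD and PFKP lost their calls (adjusted p 0.0557, 0.0557 and 0.0643). GAPDH was read by an array control probe set for its 5' end.

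Genes of this set that moved together were set beside the letters at their starts, to show whether the known hypoxia response core is present. RefSeq windows of the 250 bases before a transcript start on GRCh38.p14 were matched for 35 of the 39 genes, in 61 windows. SLC2A3, VEGFA, BNIP3L and NDRG1 had none. Below are the 7 genes with a window that fell at least 2-fold with the combination, written 5' to 3' in the direction of transcription, with ACGTG or GCGTG on either strand in capitals (CACGT and CACGC on the other strand). The windows are chr14:33951075-33951324 on the minus strand for EGLN3, chr11:10304823-10305072 on the plus strand for ADM, chr17:28576896-28577145 on the minus strand for ALDOC and chr12:6914330-6914579 on the plus strand for ENO2. They are chr15:72231191-72231440 on the minus strand for PKM, chr4:185396591-185396840 on the plus strand for ANKRD37 and chr19:34364742-34364991 on the plus strand for GPI.
EGLN3: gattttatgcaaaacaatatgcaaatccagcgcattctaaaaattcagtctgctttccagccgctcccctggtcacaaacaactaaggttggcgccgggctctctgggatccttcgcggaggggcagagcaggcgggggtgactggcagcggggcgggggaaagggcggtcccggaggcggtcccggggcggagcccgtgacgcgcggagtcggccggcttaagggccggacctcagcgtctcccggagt
ADM: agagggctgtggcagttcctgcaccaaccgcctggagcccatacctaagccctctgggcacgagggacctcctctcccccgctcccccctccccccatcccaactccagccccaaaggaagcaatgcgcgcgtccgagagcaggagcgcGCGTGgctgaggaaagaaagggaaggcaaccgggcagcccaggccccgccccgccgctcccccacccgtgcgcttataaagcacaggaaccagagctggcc
ALDOC: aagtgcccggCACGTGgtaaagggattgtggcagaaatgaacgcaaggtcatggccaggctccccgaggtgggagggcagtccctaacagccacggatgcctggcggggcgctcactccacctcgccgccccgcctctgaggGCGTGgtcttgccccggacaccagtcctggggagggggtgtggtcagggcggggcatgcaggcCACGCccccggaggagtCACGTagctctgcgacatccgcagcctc
ENO2: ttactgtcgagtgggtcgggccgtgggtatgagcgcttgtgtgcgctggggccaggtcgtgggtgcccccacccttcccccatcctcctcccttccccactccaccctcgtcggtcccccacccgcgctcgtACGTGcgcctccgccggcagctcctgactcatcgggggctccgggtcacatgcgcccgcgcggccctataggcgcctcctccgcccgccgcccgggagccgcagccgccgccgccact
PKM: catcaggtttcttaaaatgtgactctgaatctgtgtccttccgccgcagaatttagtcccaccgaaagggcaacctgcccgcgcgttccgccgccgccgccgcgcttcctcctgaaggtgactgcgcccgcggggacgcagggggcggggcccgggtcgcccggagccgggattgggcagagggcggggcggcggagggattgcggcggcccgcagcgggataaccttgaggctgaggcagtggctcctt
ANKRD37: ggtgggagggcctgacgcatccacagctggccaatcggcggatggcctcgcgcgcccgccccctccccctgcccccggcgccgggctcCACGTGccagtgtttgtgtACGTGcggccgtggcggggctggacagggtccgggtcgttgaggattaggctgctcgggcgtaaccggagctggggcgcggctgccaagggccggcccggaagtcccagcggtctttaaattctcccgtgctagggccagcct
GPI: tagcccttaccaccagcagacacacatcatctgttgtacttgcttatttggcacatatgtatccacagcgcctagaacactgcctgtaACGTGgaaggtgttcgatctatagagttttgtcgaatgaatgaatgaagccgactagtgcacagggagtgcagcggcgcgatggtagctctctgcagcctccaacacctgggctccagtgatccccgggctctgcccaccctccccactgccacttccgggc
ALDOC held 4 separate stretches, ANKRD37 2, and ADM, ENO2 and GPI 1 each, while EGLN3 and PKM held 0. Of the 17 genes with a window that fell with the combination, 14 had the core in at least 1 window, and EGLN3, PKM and TKT had it in none. In at least 1 window the core was present for 27 of the 35 genes (77.1%), against 47.4% of the 27305 genes with a window, and 2 or more stretches for 40.0% against 19.1%. Counted by window, the shares were 54.1% of 61 and 43.2% of 35116. The E-box CACGTG, which contains ACGTG, was present for 8 of the 35 (22.9%) against 7.7%. A match of letters is a description and was not tested as a site.

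Other genes of the same pathways, 65 in all, were counted in the same way. A single-gene probe set measured 59 of them, and the others were not analysed here. PF-03084014 changed 0 of the 59, with 11 (18.6%) at an unadjusted p under 0.05 by limma against 13.3% of all genes. With dexamethasone 1 rose, against 0.101% of all genes called. With the combination 5 of the 59 rose and 9 fell, against 6.43% and 5.54% of all genes, and the median was -0.0081. PFKFB2, another maker of fructose 2,6-bisphosphate, read 257 and 288 with DMSO, 168 and 178 with PF-03084014, 2822 and 2958 with dexamethasone, and 3329 and 4432 with the combination. It rose 10.6-fold with dexamethasone (3.41 ± 0.14, adjusted p 0.00841) and 14.1-fold with the combination (3.82 ± 0.14, adjusted p 0.00129). The dexamethasone call of PFKFB2 was kept only without a combination array. Over the 8 fits that left out 1 array its difference was 3.33 to 3.49 and its adjusted p reached 0.113. TXNIP, an arrestin-family protein that restrains glucose uptake, read 45.8 and 60.1 with DMSO, 142 and 177 with PF-03084014, 178 and 154 with dexamethasone, and 346 and 307 with the combination, a rise of 2.63 ± 0.21 with the combination (adjusted p 0.00392). HKDC1, a hexokinase-like gene, read 319 and 433 with DMSO, 442 and 527 with PF-03084014, 978 and 1027 with dexamethasone, and 1580.0 and 1506 with the combination, a rise of 2.05 ± 0.16 (adjusted p 0.00392).

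PDP1, the phosphatase that reactivates pyruvate dehydrogenase, rose by 0.68 ± 0.10 and RPIA, which makes ribose 5-phosphate, by 0.56 ± 0.04. Of those that fell, GBE1, the glycogen branching enzyme, read 8591 and 9693 with DMSO, 6153 and 6937 with PF-03084014, 8286 and 8853 with dexamethasone, and 4907 and 4557 with the combination, a difference of -0.95 ± 0.091 (adjusted p 0.00564). FAM162A, a hypoxia-induced mitochondrial gene, fell by 0.82 ± 0.11 and GPD2, of the glycerol phosphate shuttle, by 0.89 ± 0.11. EPAS1, which encodes the factor HIF2 alpha, was dim and read 338 and 376 with DMSO, 151 and 190.0 with PF-03084014, 313 and 343 with dexamethasone, and 178 and 151 with the combination, a difference of -1.12 ± 0.16 (adjusted p 0.0148). The adjusted p of EPAS1 was up to 0.0852 when 1 DMSO array was left out. HILPDA, a lipid droplet gene induced by hypoxia, fell by 1.61 ± 0.36 with DMSO arrays of 2065 and 4325, and its adjusted p was up to 0.158 when 1 array was left out. LDHC, the testis-type lactate dehydrogenase, fell by 1.77 ± 0.29 and RPE, an epimerase of the pentose phosphate pathway, by 0.34 ± 0.07, and each kept its call in 2 of the 8 fits without 1 array. Of the genes named here, GPD2 lost its call without DMSO replicate 2 (adjusted p 0.0588) and PDP1 without either DMSO array (up to 0.0962). PFKFB2, TXNIP, HKDC1, RPIA, GBE1 and FAM162A kept their combination calls in all 8 such fits. With probe sets averaged per gene, TXNIP was at 1.56 and still called, while GPD2 at -0.50, EPAS1 at -0.22 and PDP1 at 0.16 were not (adjusted p 0.108, 0.393 and 0.395). Without probe sets ending in _x_at or _s_at FAM162A was at -1.54 and not called (adjusted p 0.112). The remaining falls were those of PGM2 and PDHA1.

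**Figure D5:**
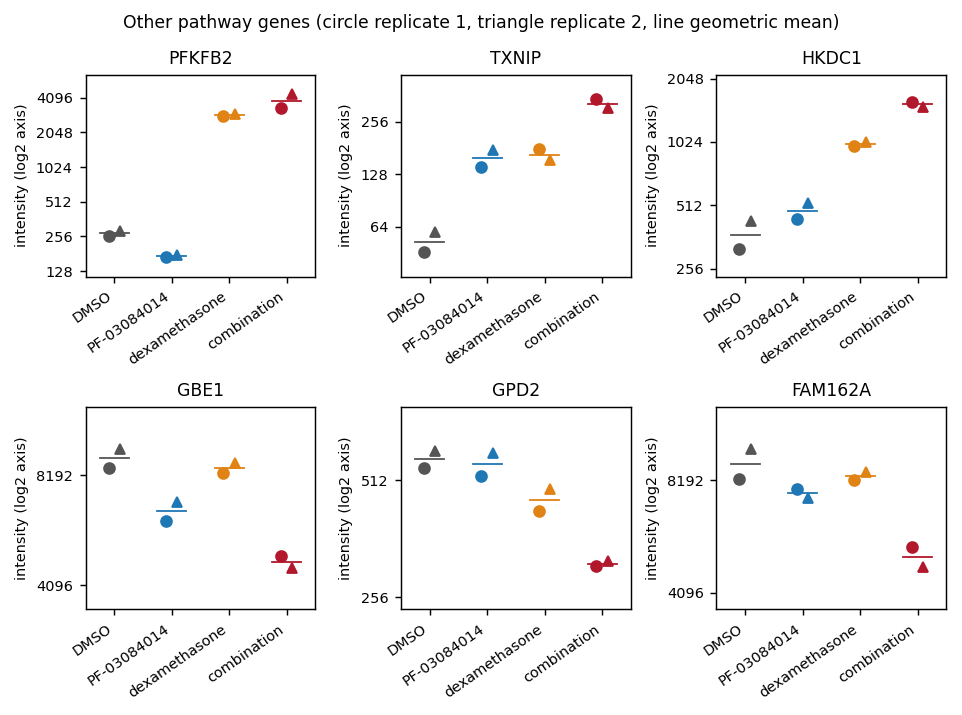
Intensity on each of the 8 arrays (log2 axis, circles replicate 1, triangles replicate 2, lines geometric means) for 6 other pathway genes. PFKFB2 is high in both groups with dexamethasone, TXNIP and HKDC1 are highest with the combination, and GBE1, GPD2 and FAM162A are lowest there.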

How the data were processed

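Affymetrix 3' arrays were hybridised with biotinylated RNA made from 200 ng of total RNA, per the labels' protocols. The authors deposited probe-set intensities on a linear scale. How they were summarised and normalized is not given in the sources used here. Intensities below 16 were set to 16 and converted to log2. Of 54675 probe sets, 41097 listed 1 gene, 1801 listed several and were left out, and 11777 listed none. Each of 19775 genes was read by its probe set with the highest mean intensity, with no filter on dim genes. Differences were fitted with limma 3.58.1 in R 4.3.3 over all 8 arrays, with 1 mean for each treatment and an intensity trend, leaving 4 residual degrees of freedom, and p-values were adjusted by Benjamini-Hochberg over all genes, two-sided, at 0.05. One spread was pooled over groups, so standard errors of contrasts with the combination, whose replicates differed most, may be too small. The median standard error was 0.177, which the number of arrays limits.

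The members and lists were chosen with earlier results of these data known. Values on each array are given for members that were called or differed from DMSO by at least 0.5, and up to 12 other pathway genes were named by size among those called in any contrast. The fitting code was tested on simulated data. The number of settings tried was 23, of which 3 were chosen after seeing the data: control probe sets left out, the probe set chosen on the log2 scale, and only genes with a mean of at least 1000.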

Additional observations from a re-analysis of the deposited data

Results flagged for a closer look

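The effect of dexamethasone on PGM1 had opposite signs without and with PF-03084014. It was 0.15 log2 units without, with both dexamethasone arrays above both DMSO arrays, and -0.25 with, where both combination arrays lay below both PF-03084014 arrays. GAPDH showed the same form for PF-03084014, at 0.042 without and -0.11 with dexamethasone. The limma interaction had an adjusted p of 0.475 for PGM1 and 0.668 for GAPDH, so neither difference passed the test. Over all genes such opposite, separated moves occurred in 5.65% for dexamethasone and 4.83% for PF-03084014.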

How the results depend on the processing

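The 18 genes that fell with the combination kept their direction in every setting that could be run for them except PGD, which was 0.26 with probe sets averaged per gene (PGD: combination against DMSO), though several changed in size with the probe sets used, as given with the results. Counts of called genes among the 39 follow, with the 8-array values first and the share of all genes in each fit that fell in brackets. For PF-03084014 against DMSO the count of 2 (0.349%) became 0 with a shift of all arrays to 1 median (0.126%). It was also 0 without trend (0.223%) and with only the groups compared (0%). It was 1 with a floor of 64 (0.268%) and 1 of 25 without probe sets ending in _x_at or _s_at (0.304%). It was 4 with array weights (1.36%) and 4 of 32 with only genes of at least 1000 (1.77%). For dexamethasone the 0 (0.0152%) became 1 without genes below the median intensity (0.0708%) and 1 of 32 with only genes of at least 1000 (0.0384%). For the combination against DMSO the 18 (5.54%) became 9 of 25 without _x_at and _s_at probe sets (4.69%). The count was 0 with only the groups compared (0%) and 10 with array weights (2.27%). Against dexamethasone the 13 (4%, shares rounded here) became 3 with the shift (1%) and 21 with a pseudocount (5%). The count was 22 without genes below the median intensity (14%) and 5 of 25 without _x_at and _s_at probe sets (3%). It was 0 with only the groups compared (0%), 4 with array weights (0.7%) and 20 of 32 with only genes of at least 1000 (16%). Against PF-03084014 the 10 (1.77%) became 3 with the shift (0.41%) and without trend (0.789%), and 3 of 25 without _x_at and _s_at probe sets (1.49%). The count was 16 without genes below the median intensity (6.35%) and 4 with probe sets averaged (0.966%). It was 0 with only the groups compared (0%) and with array weights (0.0354%). The cause of these changes was not tested, except that fewer genes were tested where genes were left out.

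With the shift the median differences were -0.65 for the combination against DMSO, -0.65 against dexamethasone, -0.52 against PF-03084014 and -0.50 for the interaction. Without _x_at and _s_at probe sets they were -0.19 for PF-03084014, -0.65 and -0.65 for the combination against dexamethasone and PF-03084014, and -0.47 for the interaction. The shift moved the share of higher calls over all genes from 57.7% to 21.9% for PF-03084014, from 85% to 100% for dexamethasone, from 53.7% to 35.6% for the combination against DMSO and from 45% to 20.6% against dexamethasone.

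Leaving out 1 array gave counts of 0 to 1 for PF-03084014, 0 for dexamethasone, 12 to 22, 0 to 22 and 0 to 17 for the combination against DMSO, dexamethasone and PF-03084014, and 0 to 2 for the interaction. The median difference then ranged from -0.32 to 0.041 for PF-03084014, -0.22 to 0.017 for dexamethasone, -0.61 to -0.34, -0.53 to -0.47 and -0.43 to -0.35 for the combination against DMSO, dexamethasone and PF-03084014, and -0.49 to -0.24 for the interaction. The replicate number as a block gave 1 call in the set for PF-03084014, and 0.2% of all genes fell, against 0.3% without the block. It gave 5 for the combination against PF-03084014, and 1.1% of all genes fell, against 1.8% without the block. Replicate gaps correlated between groups at -0.011 to 0.08 over all genes, which can miss a pairing seen in few genes. Over the hypoxia genes the median gap was 0.70 with DMSO, 0.36 with the combination, 0.044 with PF-03084014 and 0.046 with dexamethasone. Whether the numbers pair the arrays was not settled. Among the chosen probe sets, intensity over background limits those of EGLN3 and P4HA2, the 2 genes with a mean under 100.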
